A study of Mus musculus with 6 samples.

Results

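The 9 genes of the contractile apparatus that smooth muscle cells and activated stellate cells share were followed across 6 arrays of islet RNA: Des, Acta2, Tagln, Myl9, Cnn1, Myh11, Tpm2, Actg2 and Mylk. They were taken as every probe set that the platform annotation assigns to one of these 9 symbols alone, which gave 18 probe sets for 9 genes, out of 18193 genes with a probe set of their own in the series. Islets are the endocrine clusters of the pancreas, and these came from wild-type male OF-1 mice aged 30 days after birth. Each mother had been dosed with vehicle or with bisphenol-A (BPA), a building block of polycarbonate that binds estrogen receptors weakly, at 10 or 100 μg/kg/day on gestation days 9 to 16, and these groups are called vehicle, BPA10 and BPA100. Each group had 2 arrays. RNA of 5 mice was on vehicle replicate 1 and of 1 mouse on vehicle replicate 2, of 1 mouse on BPA10 replicate 1 and of 2 mice on BPA10 replicate 2, and of 1 mouse on each BPA100 array. All 3 groups thus had the same genotype, sex and age, and differed by label in the mothers' treatment and in the number of mice per array. Litter is not among the labels used here, so p-values measure only the spread between these arrays.

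Smooth muscle cells contract when myosin light-chain kinase phosphorylates the regulatory light chain of myosin, which then pulls on actin filaments coated with tropomyosin and calponin. The same genes are switched on in pancreatic stellate cells, the fat-storing fibroblast relatives around acini and islets, when these turn into matrix-producing myofibroblasts, and in pericytes and arteriolar muscle of the dense islet vasculature. Most of them are classic targets of serum response factor (SRF), which binds the CArG box together with myocardin or the myocardin-related factors, the latter held back by unpolymerised actin.

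The RefSeq promoter table (assembly GRCm38.p6) held 6 of the 9 members, and 3 promoters are shown because they bear on this motif: Acta2 and Myl9, those of the 6 with CArG-type letters, and Des, whose values ran apart from the rest. Each is the 250 bases before the annotated start, 5′ to 3′ on the gene's strand, and lies upstream of the transcript: Acta2 at chr19:34255374-34255623 on the minus strand, Myl9 at chr2:156775214-156775463 on the plus strand and Des at chr1:75360042-75360291 on the plus strand. Capitals mark CArG boxes and CArG boxes with 1 base off.
Acta2: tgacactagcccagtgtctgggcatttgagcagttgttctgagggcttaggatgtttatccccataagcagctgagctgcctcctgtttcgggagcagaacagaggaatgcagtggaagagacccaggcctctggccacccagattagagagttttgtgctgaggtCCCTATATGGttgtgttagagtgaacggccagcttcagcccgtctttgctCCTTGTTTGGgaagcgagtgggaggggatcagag
Myl9: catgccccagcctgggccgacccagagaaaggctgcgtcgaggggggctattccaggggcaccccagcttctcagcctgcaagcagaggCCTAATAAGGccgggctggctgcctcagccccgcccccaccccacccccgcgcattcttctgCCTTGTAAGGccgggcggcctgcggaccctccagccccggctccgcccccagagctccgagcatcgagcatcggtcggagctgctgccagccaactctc
Des: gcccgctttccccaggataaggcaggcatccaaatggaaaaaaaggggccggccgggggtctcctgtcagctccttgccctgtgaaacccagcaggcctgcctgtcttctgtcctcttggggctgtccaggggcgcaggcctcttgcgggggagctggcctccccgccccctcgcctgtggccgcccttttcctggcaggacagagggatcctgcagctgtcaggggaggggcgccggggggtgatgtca
In the same window Myl9 held 1 CArG box, CCTAATAAGG, from 161 to 152 bases before the start, and 1 with a base off, CCTTGTAAGG. Acta2 held 2 with a base off, CCCTATATGG from 84 to 75 and CCTTGTTTGG from 34 to 25 bases before the start. Of 32851 promoters in the table, 1.47% held a CArG box in this window and 17.5% held one with 1 base off, counted on both strands, which are alike for this motif. The MCAT motif, CATTCC, was found in Acta2 and Mylk and in 12.6% of all promoters, and the GC box, GGGCGG, in Des, Myl9 and Tpm2 and in 32.7%. TATAAA was found in 12.4% of all promoters and in none of the 6 windows. No CArG-type letters were found in the windows of Des, Tpm2, Cnn1 and Mylk. Of these, Tpm2 and Mylk had a Pearson's r of 0.93 and 0.88 with Acta2 over the 6 arrays, and Des 0.05. A relation of the motif to the signals was not tested. These are letter matches in a short window, and say nothing of a factor's binding.

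Signals are linear MAS5 intensities. Array medians lay between 33 and 40 and the highest signals between 11218 and 15158. A probe set entered the tests when its mean log2(signal + 1) over all arrays reached the 40th percentile, about a signal of 23.3. This kept 14 of the 18 member probe sets and 8 of the 9 genes, so counts over members below refer to the 8 genes measured above the filter, each by its brightest tested probe set. Tests are those of limma on all 6 arrays, 2-sided, and p-values are adjusted by Benjamini-Hochberg over the 27022 probe sets that entered, and no member passed an adjusted p of 0.05 in any comparison. Differences are of log2(signal + 1) ± the moderated standard error (SE). The added 1 draws differences of dim probe sets slightly towards 0, and their size depends on it. With 16 added in place of 1, the 2 Des probe sets in BPA10 against vehicle gave -0.87 in place of -1.17 (1426731_at) and -0.56 in place of -1.25 (1426732_at).

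The arrays carried the smooth muscle and stellate programme in part. Cnn1, calponin, which marks differentiated smooth muscle, was listed (1417917_at) at 2 and 1 on the vehicle arrays, 3 and 3 on the BPA10 arrays and 3 and 2 on the BPA100 arrays, and did not enter the tests. Of the 2 probe sets of Myh11, the smooth muscle myosin heavy chain, 1 lay between 3 and 5 on all arrays. The other (1448962_at) measured 37 and 45, 42 and 53, and 34 and 51 in vehicle, BPA10 and BPA100, so its 3 groups overlapped. Of all 18193 genes of the series 13193 were above the filter, so being above it does not by itself mark a cell type. Of 32 smooth muscle accessory genes on the array, 5 were under the filter, among them Lmod1, leiomodin, at 1 to 5. The other 27 were above it. Among these were Cald1, the actin-binding caldesmon, at 827 to 1178 by its brightest probe set and Aoc3, an amine oxidase of smooth muscle, at 125 to 210. The coactivator Myocd lay between 3 and 26 over its 2 probe sets. Of 22 pericyte and stellate markers, 4 were under the filter, among them Lrat, which stores retinoid, at 1 to 25 and Gfap at 2 to 47 over all their probe sets. Reln, found in quiescent stellate cells, was above it at 81 to 194. The pericyte markers ranged from bright to dim: Rgs5, a brake on G protein signalling, measured 2449 to 3399 and Pdgfrb, the PDGF receptor of mural cells, 353 to 518 by their brightest probe sets, Kcnj8, a potassium channel subunit, 38 to 67, Cspg4, the NG2 proteoglycan, 28 to 80, and Ndufa4l2, under the filter, 7 to 42.

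The contractile genes other than Des were highest in BPA10 islets and, in several cases, lowest in BPA100 islets. Acta2, smooth muscle actin, Tagln, the actin-binding protein transgelin, Myl9, the regulatory myosin light chain, Tpm2, beta-tropomyosin, and Mylk, the light-chain kinase, were lower in BPA100 than in BPA10 islets, with differences from -0.58 for Myl9 to -1.45 for Tagln on the log2 scale, none of which passed the test. Des, the intermediate filament protein desmin, followed another order, highest in vehicle islets and lower in both BPA groups. Because islets were measured in bulk, fewer cells of a type and less RNA per cell cannot be told apart.

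**Figure D1:**
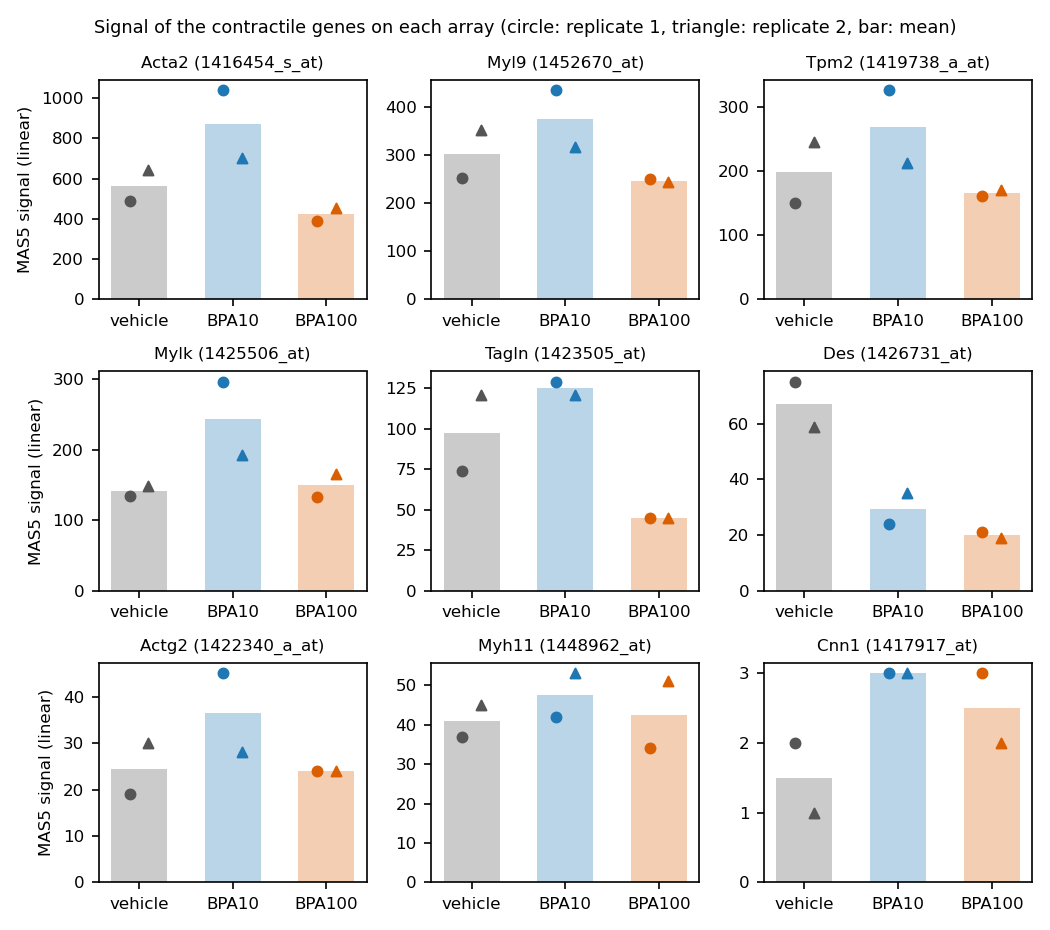
MAS5 signal (linear axis from 0, scaled per gene) of the 9 genes on each array by group, with a circle for replicate 1, a triangle for replicate 2 and a bar for the mean, each gene by its brightest probe set. Acta2 reached 1037 on BPA10 replicate 1 and stayed at 391 and 452 on the BPA100 arrays, while Des was at 75 and 59 on the vehicle arrays and at 35 or less on the other 4.

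Among the thin-filament genes, Acta2 (probe set 1416454_s_at) measured 487 and 640 on the vehicle arrays, 700 and 1037 on the BPA10 arrays and 391 and 452 on the BPA100 arrays. The 3 groups did not overlap, in the order BPA10, vehicle, BPA100, and the spread within BPA10, of which replicate 1 is the high one, was the widest. Acta2 was higher in BPA10 than in vehicle islets by 0.61 ± 0.21 (adjusted p = 0.664, limma) and 2.02-fold lower in BPA100 than in BPA10 islets (-1.02 ± 0.21, adjusted p = 0.898). The difference of BPA100 from vehicle was -0.41 ± 0.21 (adjusted p = 1.0). The Acta2 probe set carries the suffix that Affymetrix gives to probes shared by several transcripts, and other actins are close in sequence. Of the striated-muscle actins, both dim, Acta1 measured 77 and 41 in vehicle, 19 and 57 in BPA10 and 57 and 50 in BPA100 islets. Actc1 lay between 16 and 33 on all arrays. Actg2, described below, had a Pearson's r of 0.87 with Acta2 over the 6 arrays. Whether other actins add to the signal of the Acta2 probe set was not tested. The other 2 Acta2 probe sets were under the filter, at 3 to 23.

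Actg2 (1422340_a_at), the enteric smooth muscle actin, was dim, at 19 and 30 on the vehicle arrays, 45 and 28 on the BPA10 arrays and 24 and 24 on the BPA100 arrays. Its BPA10 arrays were above both BPA100 arrays but straddled vehicle replicate 2, and the differences were 0.55 ± 0.40 for BPA10 against vehicle, 0.01 ± 0.40 for BPA100 against vehicle and -0.55 ± 0.40 between the doses. BPA10 replicate 1 alone lay above the upper vehicle array.

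Tpm2, which lies along the actin filament and controls access of myosin, had 4 tested probe sets. The brightest (1419738_a_at) measured 151 and 246 on the vehicle arrays, 326 and 213 on the BPA10 arrays and 161 and 171 on the BPA100 arrays. Vehicle spanned the range from below BPA100 to above BPA10 replicate 2, so neither dose stood apart from vehicle, whereas the doses stood apart from each other (-0.66 ± 0.27, adjusted p = 0.964). The second (1425028_a_at) measured 67 and 81, 126 and 98, and 45 and 75 in the same order of groups, with BPA10 above both other groups (0.59 ± 0.29 over vehicle, -0.92 ± 0.29 for BPA100 against BPA10). The other two (1449577_x_at and 1419739_at), at signals of 26 to 35, differed by no more than 0.19 in any comparison between groups. The bright and the dim Tpm2 probe sets thus gave different sizes, and the same holds for Mylk.

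Tagln (1423505_at) measured 74 and 121 on the vehicle arrays, 129 and 121 on the BPA10 arrays and 45 and 45 on the BPA100 arrays. Both BPA100 arrays were below every other array, and BPA10 reached no higher than the upper vehicle array on its replicate 2. Its difference between the doses, -1.45 ± 0.27 or 2.74-fold lower in BPA100, was the largest of the members (unadjusted p = 5.11e-04, adjusted p = 0.897). Against vehicle, BPA100 was 2.08-fold lower (-1.06 ± 0.27, adjusted p = 1.0) and BPA10 was higher by 0.40 ± 0.27 (adjusted p = 0.810). Its relative Tagln2, found in many cell types, measured 767 and 719, 759 and 718, and 609 and 471 in vehicle, BPA10 and BPA100, a difference of -0.46 ± 0.15 between the doses.

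In the myosin motor, Myl9 (1452670_at) measured 253 and 353 on the vehicle arrays, 435 and 317 on the BPA10 arrays and 251 and 244 on the BPA100 arrays. The BPA100 arrays lay just under vehicle replicate 1 and clear of both BPA10 arrays (-0.58 ± 0.21 between the doses, adjusted p = 0.964). Against vehicle the differences were 0.31 ± 0.21 for BPA10, with overlapping arrays, and -0.27 ± 0.21 for BPA100. Myh11 differed by 0.20 ± 0.32, 0.03 ± 0.32 and -0.18 ± 0.32 in BPA10 against vehicle, BPA100 against vehicle and BPA100 against BPA10.

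Mylk, which turns the calcium signal into contraction, had its brightest probe set (1425506_at) at 134 and 148 on the vehicle arrays, 296 and 192 on the BPA10 arrays and 133 and 166 on the BPA100 arrays. BPA10 was above both other groups, and vehicle and BPA100 overlapped. BPA10 exceeded vehicle by 0.76 ± 0.24, or 1.69-fold (adjusted p = 0.622), and BPA100 was below BPA10 by a difference of -0.68 ± 0.24 (adjusted p = 0.964), while BPA100 and vehicle differed by 0.08 ± 0.24. A second probe set (1425505_at), at 94 and 125, 219 and 119, and 103 and 131, gave 0.57 ± 0.30 for BPA10 against vehicle, with replicate 1 alone above the other arrays. The third (1425504_at), at 22 to 41 over all arrays, gave 0.12 ± 0.41.

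**Figure D2:**
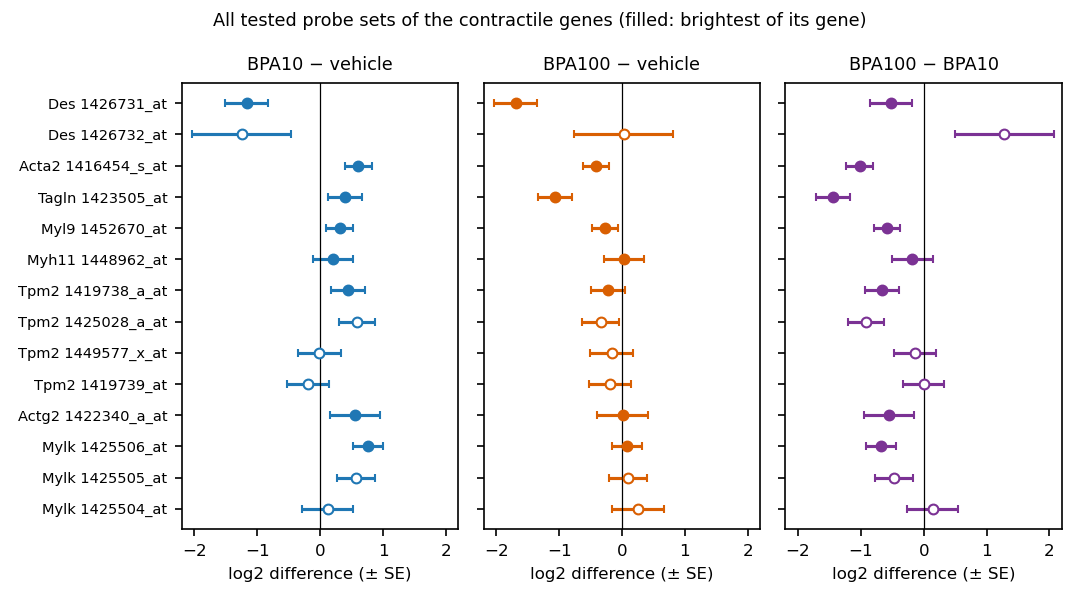
Difference of log2(signal + 1) with its SE for the 14 tested member probe sets in 3 comparisons, filled for the brightest of a gene. In BPA100 against BPA10 the brightest probe sets of all 8 genes lay below 0, while dim probe sets of Tpm2 and Mylk lay near 0 and the second of Des at 1.28 ± 0.79.

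Des links the contractile filaments to one another in muscle and is the usual antigen for stellate cells and pericytes. Its brighter probe set (1426731_at) measured 75 and 59 on the vehicle arrays, 24 and 35 on the BPA10 arrays and 21 and 19 on the BPA100 arrays. All 4 BPA arrays were below both vehicle arrays, and the 2 doses did not overlap either. It was 2.25-fold lower than in vehicle islets in BPA10 (-1.17 ± 0.34, adjusted p = 0.592) and 3.22-fold lower in BPA100 (-1.69 ± 0.34, adjusted p = 0.849), while the mean of both doses gave -1.43 ± 0.29 (adjusted p = 0.594). On the BPA100 arrays the signal was under the level of the filter, which applies to the mean over all 6 arrays. The second Des probe set (1426732_at) did not repeat the pattern: it measured 34 and 29, 36 and 4, and 32 and 32, and its difference of -1.25 ± 0.79 in BPA10 came from the value of 4 on replicate 2. The 2 probe sets of Des were therefore at odds in BPA100, at -1.69 ± 0.34 and 0.03 ± 0.79.

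**Figure D3:**
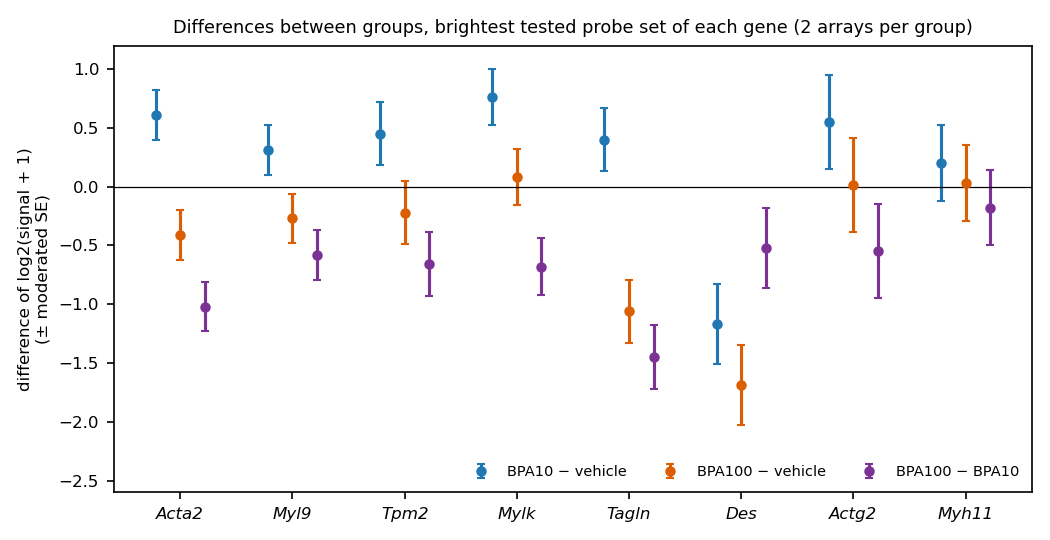
Difference of log2(signal + 1) ± moderated SE between groups of 2 arrays, for the brightest tested probe set of each of 8 genes. BPA10 against vehicle lies above 0 for all but Des, BPA100 against BPA10 lies below 0 for all 8, and BPA100 against vehicle is lowest for Des (-1.69) and Tagln (-1.06).

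Counted over the 8 genes, 7 were higher and 1 was lower in BPA10 than in vehicle islets, with a median difference of 0.42 against 0.019 over all 13193 genes tested, of which 53.1% were higher. With limma 0 passed, as for 0.0% of all 27022 probe sets. At an unadjusted p under 0.05, 1914 probe sets in all were found, and 2 of the 8 member genes were higher, Acta2 and Mylk, against 3.71% of all genes, and Des lower, against 2.3%. Arrays did not overlap for the same 2 genes upward, against 19.3% of all genes, and for Des downward, against 16.2%. The size rested on single arrays: the median was 0.09 without vehicle replicate 1, 0.77 without vehicle replicate 2, 0.27 without BPA10 replicate 1 and 0.65 without BPA10 replicate 2, and the count of 2 higher genes was 0 without vehicle replicate 1 or BPA10 replicate 1, 4 without vehicle replicate 2, 3 without BPA10 replicate 2 and 1 with no intensity trend. Des was no longer under that p without vehicle replicate 1.

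In BPA100 against vehicle, 3 of the 8 genes were higher and 5 lower, with a median of -0.24 against -0.001 over all genes, of which 49.8% were higher and 50.1% lower. Limma passed 0, as for 0.0% of all probe sets, with 1075 probe sets at an unadjusted p under 0.05. Tagln and Des were lower at that level, 2 of 8 against 1.78% of all genes, and the arrays of 4 genes, Des, Acta2, Tagln and Myl9, did not overlap downward, against 15.3%. The median was -0.54 without vehicle replicate 1 and 0.05 without vehicle replicate 2, so its sign rested on the single-mouse vehicle array. Both comparisons with vehicle use the same vehicle arrays.

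In BPA100 against BPA10, all 8 of these genes were lower, against 53.0% of all genes, and the median was -0.62 against -0.016. Limma again passed 0 (0.0% of all probe sets, with 1283 at an unadjusted p under 0.05). At an unadjusted p under 0.05, 5 of 8 were lower, Acta2, Tagln, Myl9, Tpm2 and Mylk, against 2.65% of all genes. The arrays did not overlap for 7 of 8, Myh11 being the exception, against 17.0%. The count of 5 was 2 without BPA10 replicate 1 or BPA100 replicate 1, and 3 without BPA100 replicate 2 or with no intensity trend. Without BPA10 replicate 1 the median was -0.36, all 8 still lower; without BPA100 replicate 1, 7 were lower. The mean of both doses differed from vehicle by a median of 0.11, with 6 higher, against 51.5% of all genes, and 2 lower; Des alone, whose arrays did not overlap (6.43% of all genes downward), was lower at an unadjusted p under 0.05, against 1.92% of all genes, and no probe set passed (0.0%; 1537 at an unadjusted p under 0.05). That median was -0.16 without vehicle replicate 1, 0.28 without vehicle replicate 2, -0.04 without BPA10 replicate 1, 0.19 without BPA10 replicate 2, 0.04 without BPA100 replicate 2 and, with only arrays of 1 mouse, -0.09 (3 higher and 5 lower).

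By array, the median of the 8 genes relative to their vehicle means stood at -0.22 and 0.22 on the vehicle arrays, 0.65 and 0.27 on the BPA10 arrays and -0.26 and -0.23 on the BPA100 arrays. Vehicle replicate 1 thus lay at the level of BPA100 and vehicle replicate 2 close to BPA10 replicate 2. Over the 6 arrays, as a description of values that share array scaling and group, Acta2, Myl9, Tpm2, Actg2, Mylk and Tagln ran together, with Pearson's r from 0.57 (Tagln with Mylk) to 0.98 (Myl9 with Tpm2). Des had r between -0.38 (Mylk) and 0.44 (Tagln) with the other members, and Myh11 between -0.13 and 0.36.

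The genes most like the mean of the members over the 6 arrays, among 2219 genes with a range of at least 1 on the log2 scale, were Tmem45a (r = 0.992), Cartpt (0.987), Selplg (0.968), Sfxn5 (0.967) and Smarcd3 (0.965). Tmem45a, a transmembrane protein, measured 46 and 95, 185 and 75, and 18 and 22 in vehicle, BPA10 and BPA100. Cartpt, the precursor of the CART peptides, which islets and neurons make, measured 150 and 223, 256 and 193, and 85 and 103. Both had the members' order, with vehicle replicate 1 below replicate 2 and BPA10 replicate 1 highest. The genes most like Des were Spata31d1d (0.977), Rsph3a (0.962), Ccdc74a (0.958), Snhg12 (0.955) and Orc6, a subunit of the origin recognition complex (0.947), which measured 279 and 332, 163 and 222, and 146 and 154. With 6 arrays and 2219 candidates, values of this size are a selection and not a test.

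Smooth muscle accessory genes had list medians of 0.13, 0.02 and -0.10 in BPA10 against vehicle, BPA100 against vehicle and BPA100 against BPA10. Of 27 tested, 18 were higher in BPA10 than in vehicle islets, against 53.1% of all genes. At an unadjusted p under 0.05 in limma, 4 were higher, against 3.71%, and 1 lower, against 2.3%. The arrays of 11 did not overlap upward, against 19.3%, and of 2 downward, against 16.2%. Between the doses 20 were lower in BPA100, against 53.0%, 2 of them at that unadjusted level, against 2.65%. The arrays of 7 did not overlap downward, against 17.0%. Single genes lay well off these medians. Itga8, an integrin of mesenchymal and smooth muscle cells, measured 57 and 72, 141 and 88, and 70 and 78 in vehicle, BPA10 and BPA100 (0.79 ± 0.28 for BPA10 against vehicle, adjusted p = 0.664). Mustn1, a small nuclear protein of muscle, measured 43 and 41, 79 and 63, and 33 and 34, and differed by -1.05 ± 0.27 between the doses, with no overlap between any groups. Ramp1, a receptor partner for the vasodilator CGRP, was lower in both doses, at 214 and 171 against 137 and 136 and 146 and 119 (-0.48 ± 0.20 and -0.53 ± 0.20).

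The actin-SRF regulators had medians near vehicle: of 18 tested, 11 were higher in BPA10 (median 0.05) and 12 lower in BPA100 (median -0.06), with 0 at an unadjusted p under 0.05 in either comparison in limma. Between the doses 13 of 18 were lower in BPA100 than in BPA10 (median -0.06), against 53.0% of all genes. At an unadjusted p under 0.05 in limma, 3 were lower, against 2.65% of all genes. The arrays of 5 did not overlap downward, against 17.0%. Tead1, which binds the MCAT motif, had the list's smallest p in the comparisons of a dose with vehicle, but not between the doses. It measured 558 and 471 in vehicle, 588 and 636 in BPA10 and 632 and 630 in BPA100 (0.30 ± 0.14 for BPA100 against vehicle, adjusted p = 1.0). Srf measured 169 and 143, 110 and 129, and 117 and 176 by its brighter probe set. Cytoplasmic actin and myosin genes, of which 21 of 21 were tested, had medians of 0.01, -0.10 and -0.09 in BPA10 against vehicle, BPA100 against vehicle and BPA100 against BPA10. Of 25 TGF-beta pathway genes, 13 were higher and 12 lower in each comparison with vehicle. Tgfbi, a matrix protein induced by TGF-beta, was lower in BPA100 (269 and 185 against 118 and 139, -0.80 ± 0.23, adjusted p = 1.0), as was Ltbp2, a matrix protein of elastic fibres (-0.61 ± 0.25). Ltbp3, which holds latent TGF-beta in the matrix, was lower in BPA10, at 1218 and 1354 against 829 and 882 (-0.59 ± 0.21, adjusted p = 0.669).

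Pericyte and stellate markers split in BPA10, with 10 of 18 tested higher (median 0.27), and were near vehicle in BPA100 (8 higher, median -0.02). The BPA10 value rested on replicate 1, the list's median being 0.47 on that array and -0.13 on replicate 2. Cspg4 measured 28 and 30, 80 and 40, and 28 and 36 (0.94 ± 0.38 for BPA10 against vehicle, adjusted p = 0.686). Reln was lower in both doses as Des was, at 156 and 194 against 119 and 83 and 81 and 134 (-0.80 ± 0.29 and -0.73 ± 0.29). Of 31 striated muscle genes 23 were under the filter, so most contractile genes of skeletal and cardiac muscle were near background. The other 8 were tested, among them Acta1 at 19 to 77. Mylpf, a fast-muscle light chain, measured 34 to 56 and differed by -0.61 ± 0.30 in BPA100 against vehicle.

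**Figure D4:**
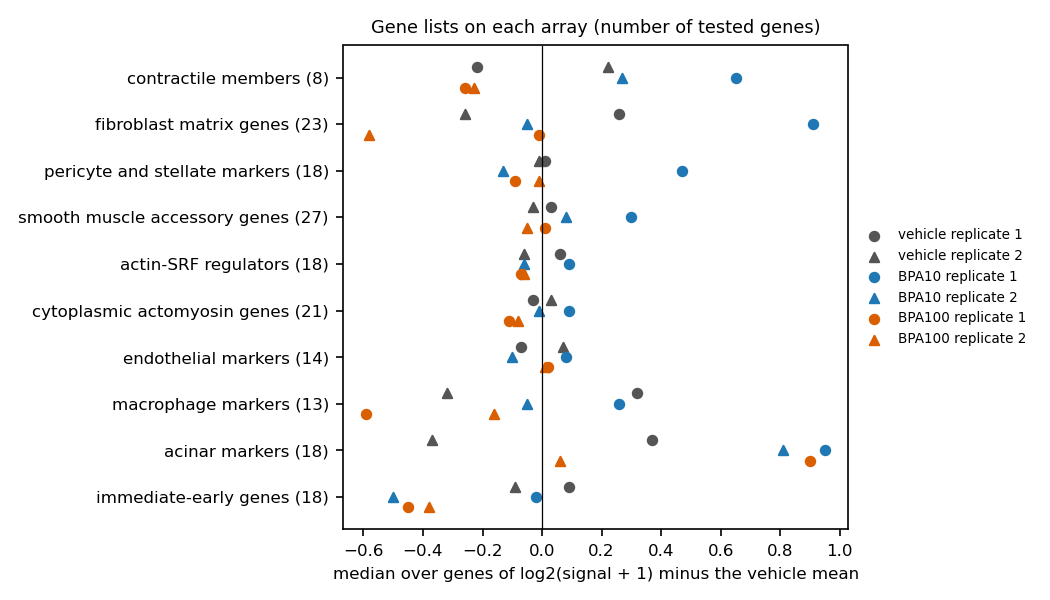
Median over the tested genes of each list of log2(signal + 1) minus the vehicle mean, on each array, with the number of genes in brackets. BPA10 replicate 1 is the highest array for the contractile genes (0.65), the fibroblast matrix genes (0.91) and the pericyte and stellate markers (0.47). It is also the highest for acinar markers (0.95), smooth muscle accessory genes (0.3), actin-SRF regulators (0.09), cytoplasmic actomyosin genes (0.09) and endothelial markers (0.08). Macrophage markers (0.32) and immediate-early genes (0.09) are highest on vehicle replicate 1. Endothelial markers lie between -0.10 and 0.08.

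Fibroblast matrix genes had the members' order between the doses. All 23 tested were lower in BPA100 than in BPA10 (median -0.87), against 53.0% of all genes. At an unadjusted p under 0.05 in limma, 10 were lower, against 2.65% of all genes. Against vehicle, 20 were higher in BPA10 (median 0.45) and 21 lower in BPA100 (median -0.32), beside 53.1% and 50.1% of all genes. The summed signal of the matrix genes was 9418 to 12066 in vehicle, 10400 to 17020 in BPA10 and 6797 to 9896 in BPA100, with BPA10 replicate 1 at 17020. Each group's median rested mainly on 1 array: by array the list's median stood at 0.91 and -0.05 in BPA10 and at -0.01 and -0.58 in BPA100, relative to vehicle. Thy1, a surface marker of fibroblasts, measured 75 and 48, 155 and 134, and 74 and 53 (1.25 ± 0.28 over vehicle in BPA10, adjusted p = 0.462), Postn, periostin, was higher in BPA10 by 0.79 ± 0.19 (adjusted p = 0.486) and Mgp, matrix Gla protein, was lower in BPA100 by a difference of -0.80 ± 0.22 (adjusted p = 1.0). On the arrays themselves the 2 groups of genes ran apart in vehicle: replicate 1 was the lower vehicle array for the contractile genes (-0.22 against 0.22) and the higher for the matrix genes (0.26 against -0.26).

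Markers of other cells in an islet preparation stood beside the members as follows, and their part in the members' differences was not tested. Acinar markers, from the enzyme-secreting cells around islets, were higher than in vehicle for 18 of 18 genes in BPA10 (median 0.88), against 53.1% of all genes. In BPA100 17 of 18 were higher (median 0.45), against 49.8%. In BPA10 15 had an unadjusted p under 0.05 in limma, against 3.71% of all genes, and the arrays of 17 did not overlap upward, against 19.3%. Their summed signal was 66550 to 113679 in vehicle, 144113 to 156910 in BPA10 and 89814 to 148212 in BPA100. No acinar marker probe set was at 0 on every array. Macrophage markers were lower in BPA100 than in vehicle for 11 of 13 (median -0.43), against 50.1% of all genes. Their summed signal was 2042 to 4939 in vehicle, 2190 to 3357 in BPA10 and 1765 to 1924 in BPA100. Endothelial markers had summed signals of 4513 to 4961, 4547 to 4923 and 4716 to 4795, within the vehicle range on every array of both doses. By list median the BPA10 arrays, at 0.08 and -0.10, lay just outside the vehicle arrays, at -0.07 and 0.07. The BPA100 arrays, at 0.02 and 0.01, lay inside. Duct markers summed to 7990 to 9647, 8522 to 9022 and 7293 to 7816, Schwann cell markers to 958 to 970, 1190 to 1250 and 946 to 1077, and islet endocrine markers to 67723 to 73552, 84563 to 85818 and 72698 to 84492 in vehicle, BPA10 and BPA100. Immediate-early genes, several of which are SRF targets too, were lower for 15 of 18 in BPA10 (median -0.32) and 16 of 18 in BPA100 (median -0.46). Of all genes, 53.1% were higher in BPA10 and 50.1% lower in BPA100. The list's medians were -0.02 on the first BPA10 array and -0.50 on the second.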

How the data were processed

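Islet RNA of 6 arrays in 3 groups was measured, 2 per group. The deposited values are 1 linear intensity per probe set and array, made with MAS5 (as the submitters' processing notes list); the version is not given in the sources used here. They are whole numbers, and the mean of every array without its lowest and highest 2% was 150.0, so each had been scaled to 1 target and a value is relative to the mean of its own array. Per the labels' protocols, RNA was amplified over 2 cycles of cDNA synthesis.

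After leaving out 64 control probe sets of 45101, log2(signal + 1) was taken with no further normalization. In the platform annotation 34945 probe sets had a single gene, 932 had several and 9160 had none named here; symbols were updated through a RefSeq table of GRCm38.p6. The limma package (version 3.58.1, run in R 4.3.3; lmFit with trended eBayes) modelled the 3 group means over all arrays, with 3 residual and 5.4 prior degrees of freedom; it was tested on simulated data. The number of arrays limits the precision (median SE 0.241 for 2 arrays against 2), and permuting 2 against 2 arrays cannot give a 2-sided p below 0.333. The genes named are all 9 members, up to 3 of each related list by smallest p in a comparison with vehicle, and the 5 genes most like the members' mean and most like Des; Srf, Acta1, Actc1 and the markers of the check of the label were added after their values were seen. Of 306 list entries 287 were found. Members, lists and tests were chosen with earlier results of these data known. Alternatives were quantile normalization, median centring, a pseudocount of 16, no filter or the 60th percentile, no trend, only the groups compared, the replicate number as a block, only arrays of 1 mouse, leaving out each array and averaging the probe sets of a gene. Detection calls were not used here.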

Additional observations from a re-analysis of the deposited data

How the results depend on the processing

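No member passed an adjusted p of 0.05 under any alternative. Of 798 recomputed differences of member probe sets, 748 did not turn sign, those that round to 0 included. For the 50 that turned, the cause was not tested. Values are log2 differences.

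The count of probe sets passing, 0 in each comparison, was 1 (BPA10 against vehicle) and 4 (BPA100 against vehicle) with only the groups compared, and 6 (BPA100 against vehicle) and 1 (mean of both doses) with median centring. With the replicate number as a block it was 7 for BPA100 against vehicle and 1 for the mean of both doses. Samples with the same number had deviations correlated at 0.194 (vehicle and BPA10), 0.199 (vehicle and BPA100) and 0.08 (BPA10 and BPA100). With so few arrays in a group, these values cannot show whether samples with the same number share more than that number. The block left the members' medians at 0.42, -0.24, -0.62 and 0.11. Leaving out single arrays, the count ran from 0 to 9 for BPA10 against vehicle (9 without vehicle replicate 1), from 0 to 5 for BPA100 against vehicle, from 0 to 1 between the doses and from 0 to 7 for the mean of both doses.

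The members' median ran from 0.09 to 0.77, from -0.54 to 0.05, from -0.92 to -0.36 and from -0.16 to 0.28 when single arrays were left out, for the lower dose and the higher dose against vehicle, between the doses and for the mean of both doses. With only arrays of 1 mouse it was -0.54 for BPA100 against vehicle, -0.92 between the doses and -0.09, a turned sign, for the mean of both doses. That setting leaves 1 vehicle and 1 BPA10 array, which are assumed to vary like the 2 BPA100 arrays, and a group left with 1 array in the other settings is likewise assumed to vary like the rest.

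Signs turned with only arrays of 1 mouse as follows. In BPA10 against vehicle, Des 1426732_at gave 0.30, Myh11 -0.10 and Mylk 1425504_at -0.62. In BPA100 against vehicle, Myh11 gave -0.11, Actg2 -0.31, Mylk 1425505_at -0.10 and Mylk 1425504_at -0.08. Between the doses Des 1426732_at gave -0.17. For the mean of both doses Des 1426732_at gave 0.22, Myl9 -0.11, Myh11 -0.10, Tpm2 1419738_a_at -0.08 and Mylk 1425504_at -0.35. Quantile normalization and median centring both gave 0.01 for Tpm2 1449577_x_at in BPA10 against vehicle.

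With single arrays left out, signs turned within these ranges. In BPA10 against vehicle they were -2.70 to 0.19 for Des 1426732_at, -0.22 to 0.20 for Tpm2 1449577_x_at and -0.28 to 0.53 for Mylk 1425504_at. In BPA100 against vehicle they were -0.08 to 0.14 for Des 1426732_at, -0.26 to 0.31 for Myh11, -0.57 to 0.14 for Tpm2 1419738_a_at, -0.70 to 0.03 for Tpm2 1425028_a_at, -0.36 to 0.05 for Tpm2 1449577_x_at, -0.31 to 0.32 for Actg2, -0.08 to 0.24 for Mylk 1425506_at, -0.10 to 0.30 for Mylk 1425505_at and -0.08 to 0.60 for Mylk 1425504_at. Between the doses they were -0.17 to 2.72 for Des 1426732_at, -0.46 to 0.11 for Myh11 and -0.27 to 0.54 for Mylk 1425504_at. For the mean of both doses they were -1.33 to 0.11 for Des 1426732_at, -0.10 to 0.30 for Acta2, -0.68 to 0.02 for Tagln, -0.22 to 0.26 for Myl9, -0.03 to 0.26 for Myh11, -0.23 to 0.47 for Tpm2 1419738_a_at, -0.06 to 0.31 for Tpm2 1425028_a_at, -0.29 to 0.12 for Tpm2 1449577_x_at, -0.04 to 0.60 for Actg2 and -0.15 to 0.53 for Mylk 1425504_at.

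Having 2 arrays a group limits every value, and a dim probe set such as those of Cnn1, Actg2 and Des lies close to background.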
